A study of Homo sapiens with 3 samples.

Results

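The transcripts described here are those of the 4 human TSC22 genes (TSC22D1, TSC22D2, TSC22D3 and TSC22D4) and of 3 genes whose proteins work with them, the pseudokinase genes NRBP1 and NRBP2 and the kinase gene WNK1. They were taken by name as known partners, with earlier results of these data known, and all 7 were found, each as a single row, among the 55773 gene symbols of the deposited table. RNA was sequenced from 3 lines of HaCaT, a human keratinocyte line that became immortal spontaneously. All 3 lines had first been made to express the oncogenic HRAS mutant G12V. The line HaCaT-Ras-THG-1 (S264A) then received THG-1, the protein encoded by TSC22D4, carrying the substitution S264A, alanine in place of a serine. The line HaCaT-Ras-THG-1 (WT) received the wild-type form, and the line HaCaT-Ras (-) received the empty vector. Culture was in DMEM containing fetal bovine serum for every line. Each line was represented by 1 library, so that there is no spread between replicates, no p-value is given, and a difference between lines cannot be told apart from one between cultures. Whether a line was a clone or a pool of transduced cells, and which promoter drove the transgenes, was not stated in any source used.

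As background, the TSC22 proteins share a conserved TSC box followed by a leucine zipper, through which they pair with themselves and with each other. TSC22D1 was found as a transcript stimulated by TGF-beta, and TSC22D3, also called GILZ, as one induced by glucocorticoids. NRBP1 is a pseudokinase that binds the long TSC22 proteins. WNK1 is a kinase that senses chloride and osmotic stress, and in human cells NRBP1 and TSC22 proteins join it when cells lose volume. WNK1 acts through the kinases SPAK and OSR1 on cation-chloride cotransporters, which set the salt content and volume of the cell.

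The sequence that separates both transgenes is the TSC22D4 codon replaced in S264A. It is shown with 10 codons on either side, from codon 254 to codon 274, because it is the only labelled difference between the S264A and wild-type lines. In the reference transcript (GENCODE release 29, build GRCh38) the codon lies in exon 3 of 5, which is coding at that point, at chr7:100474411-100474413 on the minus strand. The capitals mark the serine codon, and the reference sequence is shown, not that of a library.
TSC22D4: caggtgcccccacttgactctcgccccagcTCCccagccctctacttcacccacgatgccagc

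Both transgene lines carried far more TSC22D4 transcript than the empty-vector line. TSC22D4 stood at 51.1 RPKM with S264A, 64.9 RPKM with wild type and 7.98 RPKM with empty vector, from 2663, 3072 and 950 reads in the same order. RPKM relates the reads of a gene to its length and to the depth of the library, so a comparison between genes depends on the lengths used. The ratio was 6.41 for S264A over empty vector, with an exact 95% counting interval of 5.95 to 6.91. It was 8.14 for wild type over empty vector (7.57 to 8.76). S264A held 0.787 times the wild-type level (0.747 to 0.829), so the S264A line carried less transcript than the wild-type line. The last ratio lay between 0.811 and 0.888 under 4 other scalings of the libraries.

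These counting intervals cover the sampling of reads only. Reads from the vector and from the cell's own TSC22D4 gene are pooled in the gene's value and cannot be told apart. The value is divided by 3715 exon bases, while the coding sequence has 395 codons, and the length of the vector transcript is not known here. Comparisons of TSC22D4 with other genes in the transgene lines, here and below, therefore depend on that length. In GENCODE release 29, 391 of the 3715 exon bases of TSC22D4 are shared with C7orf61 on the same strand. C7orf61 itself was listed at 0.180 RPKM with S264A, 0.593 RPKM with wild type and 0.367 RPKM with empty vector, on 3, 9 and 14 reads. HRAS, the gene whose oncogenic mutant was expressed in all 3 lines, stood at 22.4 RPKM with S264A, 27.8 RPKM with wild type and 23.9 RPKM with empty vector. Its value likewise pools the introduced mutant with the cell's own HRAS, so the level of the mutant alone is not known.

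**Figure D1:**
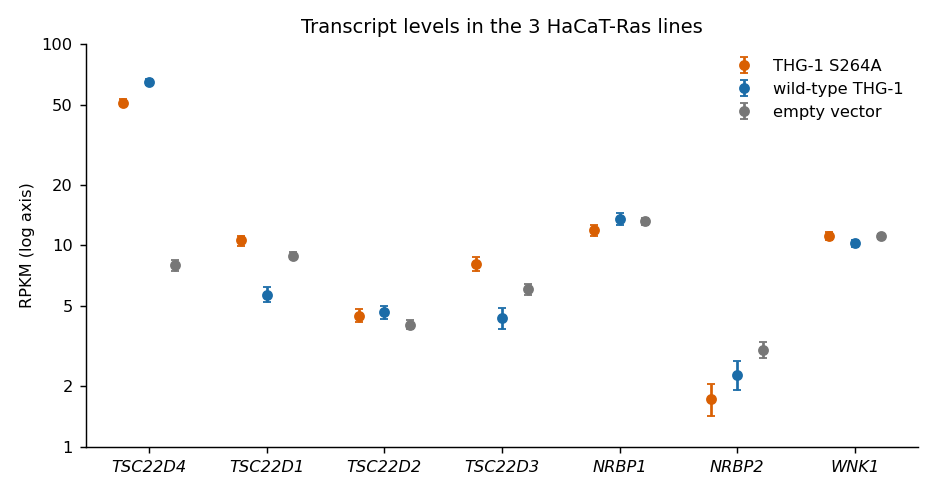
Level of each of the 7 transcripts (RPKM, log axis) in the S264A, wild-type THG-1 and empty-vector libraries, with exact 95% Poisson counting intervals. TSC22D4 stands at 51.1 and 64.9 RPKM in the transgene lines and at 7.98 RPKM with empty vector, while TSC22D1 and TSC22D3 are lowest in the wild-type line.

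Genes were also counted as higher or lower where RPKM + 1 differed at least 2-fold, among genes that reached 1 RPKM in either line compared. By this rule TSC22D4 was higher in both transgene lines, and none of the other 6 genes passed it in any of the 3 comparisons. For S264A against empty vector, 1 of 7 was higher and 0 lower, while 2.99% of 12010 genes were higher and 0.824% lower (3.81% in either direction). For wild type against empty vector, 1 of 7 was higher and 0 lower, against 4.53% and 1.54% of 11993 genes (6.07% in either direction). For S264A against wild type, 0 of 7 were higher or lower, against 1.55% higher and 2.23% lower of 12069 genes (3.78% in either direction). The single gene called is the transgene, so these counts say nothing about the native genes beyond their not passing this rule on the RPKM + 1 scale.

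The other 6 genes had a median log2 difference of 0.06 for S264A over empty vector, -0.20 for wild type over empty vector and 0.03 for S264A over wild type, on the RPKM + 1 scale. The medians over all genes tested were 0.02, -0.01 and 0.02 in the same order. The comparisons with empty vector share the empty-vector library.

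**Figure D2:**
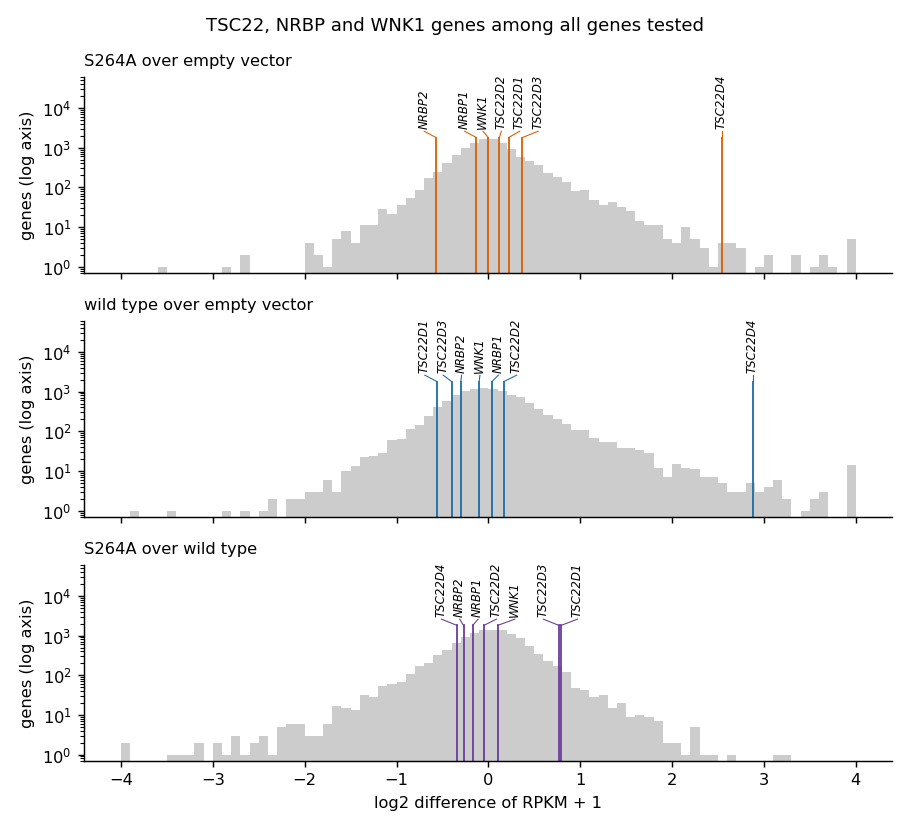
Number of genes (log axis) by log2 difference of RPKM + 1 in each comparison, with vertical lines at the 7 genes, and genes beyond ±4 placed in the last bars. TSC22D4 lies at 2.54 and 2.88 against empty vector, and TSC22D1 and TSC22D3 lie at 0.79 and 0.77 for S264A over wild type.

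TSC22D1 and TSC22D3, the TGF-beta-stimulated and glucocorticoid-induced family members, were the native genes that differed most between the transgene forms. TSC22D1 stood at 10.6 RPKM with S264A, 5.70 RPKM with wild type and 8.91 RPKM with empty vector, on 1061, 520 and 2044 reads. The wild-type library was the lowest and the S264A library the highest, and the 3 counting intervals did not overlap. TSC22D1 was 1.85 times as high with S264A as with wild type (1.67 to 2.06). Wild type over empty vector gave 0.640 (0.581 to 0.705), and S264A over empty vector 1.19 (1.10 to 1.28).

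TSC22D3 followed the same order of lines. It stood at 8.09 RPKM with S264A, 4.35 RPKM with wild type and 6.06 RPKM with empty vector, on 541 reads with S264A and 926 with empty vector, and fewer with wild type. The 3 counting intervals did not overlap here either. S264A over wild type was 1.86 (1.60 to 2.16), wild type over empty vector 0.718 (0.624 to 0.824) and S264A over empty vector 1.34 (1.20 to 1.49).

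Differences of this size were not rare in these libraries. A difference at least as large as that of TSC22D1 between S264A and wild type, 0.79 on the log2 RPKM + 1 scale, was found in 7.0% of genes tested, and one as large as that of TSC22D3, 0.77, in 7.62%. Between wild type and empty vector the shares were 19.0% for TSC22D1 (-0.56) and 32.3% for TSC22D3 (-0.40), and between S264A and empty vector 46.3% (0.22) and 27.7% (0.37). Under 4 other scalings the S264A over wild type ratio lay between 1.87 and 2.01 for TSC22D1 and between 1.85 and 2.02 for TSC22D3. The ratio of wild type over empty vector lay between 0.533 and 0.620 for TSC22D1 and between 0.598 and 0.704 for TSC22D3. For S264A over empty vector the TSC22D1 ratio came down to 1.03 with upper-quartile scaling, and that of TSC22D3 to 1.16.

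The ratio of TSC22D1 over TSC22D3 within a library is not altered by a factor that scales the whole library. In the RPKM values it was 1.31 with S264A, 1.31 with wild type and 1.47 with empty vector. Both genes make several proteins of different length in the reference annotation, from 86 to 1073 codons for TSC22D1 and from 77 to 200 codons for TSC22D3, and the deposited values are one per gene, so that long and short forms cannot be told apart. In the same annotation, exons of TSC22D1 share 535 bases with AL138960.2, 469 with the antisense gene TSC22D1-AS1 and 117 with AL139184.1, all on the opposite strand, and exons of TSC22D3 share 71 bases with NCBP2L on the opposite strand. Counting by strand was not stated in any source used.

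The promoter windows of both genes were read from RefSeq (build GRCh38.p14, 250 bases before to 50 after each start) because they had the same order of lines. The table held 12 windows for 5 of the 7 genes, 5 of them for TSC22D1 and 4 for TSC22D3. Both strands of each window were searched for a TATA box (TATAAA), AP-1 (TGACTCA), the cAMP response element (TGACGTCA), FOXO (TGTTTAC) and SMAD (GTCTAGAC), and for the longer consensus sites of NF-kB and the glucocorticoid receptor. The windows printed are the ones with a TATA box just before the start, beginning at position -28 in TSC22D1 and -29 in TSC22D3, counted from the start site. The first lies at chr13:44576281-44576580 and the second at chrX:107717013-107717312, both on the minus strand. Capitals mark the matches, which do not overlap.
TSC22D1: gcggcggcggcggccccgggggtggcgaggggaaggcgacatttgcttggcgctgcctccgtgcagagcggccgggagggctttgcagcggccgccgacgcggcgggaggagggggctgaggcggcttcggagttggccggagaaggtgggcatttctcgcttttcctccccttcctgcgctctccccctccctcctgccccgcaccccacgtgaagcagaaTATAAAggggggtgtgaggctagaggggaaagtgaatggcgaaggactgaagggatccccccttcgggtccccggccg
TSC22D3: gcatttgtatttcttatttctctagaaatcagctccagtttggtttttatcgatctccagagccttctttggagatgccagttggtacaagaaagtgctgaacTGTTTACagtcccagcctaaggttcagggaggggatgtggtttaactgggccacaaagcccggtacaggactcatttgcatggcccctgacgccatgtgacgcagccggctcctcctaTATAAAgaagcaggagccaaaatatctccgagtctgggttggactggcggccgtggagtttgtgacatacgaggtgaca

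The TSC22D3 window also held the FOXO letters, beginning at position -147. TATAAA was found in 11.5% of 35116 RefSeq promoter windows and TGTTTAC in 3.42%. In the other windows of both genes, TATAAA occurred at 2 places in 1 TSC22D1 window and an AP-1 match (4.95% of all windows) in another. The single windows of TSC22D4, NRBP1 and WNK1 held none of the 7 motifs. The letters for the glucocorticoid receptor (0.390% of all windows), SMAD (0.202%), NF-kB (1.91%) and the cAMP response element (1.85%) were in none of the 12 windows. The data do not show which start was used, and a match is a description of the letters only.

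TSC22D2, the fourth family member, encodes a long TSC22 protein of 780 codons in the reference annotation. It stood at 4.48 RPKM with S264A, 4.67 RPKM with wild type and 4.04 RPKM with empty vector, on 733, 694 and 1511 reads. Its ratio was 0.959 for S264A over wild type, with an interval of 0.863 to 1.07 that includes 1. The ratio was 1.11 for S264A over empty vector (1.01 to 1.21) and 1.16 for wild type over empty vector (1.06 to 1.27), and both went below 1, to 0.962 and 0.963, with upper-quartile scaling.

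As a group, the TSC22 transcripts were dominated by TSC22D4 in the transgene lines. The summed level of the 4 genes was 74.3 RPKM with S264A, 79.7 RPKM with wild type and 27 RPKM with empty vector. TSC22D4 made up 68.8% of this sum with S264A, 81.5% with wild type and 29.6% with empty vector. TSC22D1 made up 14.2%, 7.16% and 33.0% in the same order and had the highest RPKM of the family in the empty-vector line. The length recovered for TSC22D1 was 7159 bases, against 8586 in GENCODE release 29. A longer length gives a lower RPKM, so its rank over TSC22D4 there depends on the length used. The sum over TSC22D1, TSC22D2 and TSC22D3 alone was 23.1 RPKM with S264A, 14.7 RPKM with wild type and 19.0 RPKM with empty vector.

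**Figure D3:**
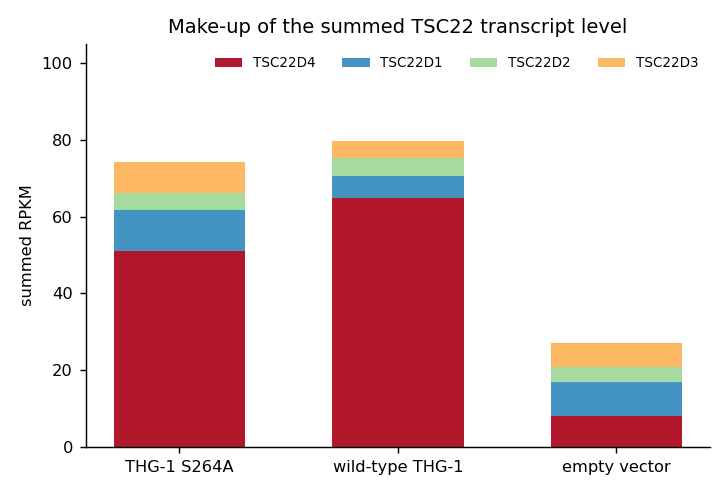
Summed RPKM of the 4 TSC22 genes in the S264A, wild-type THG-1 and empty-vector libraries, divided by gene. TSC22D4 makes up 68.8% and 81.5% of the sum in the transgene lines and 29.6% with empty vector.

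NRBP1, the pseudokinase partner of the TSC22 proteins, differed little between lines. It stood at 11.9 RPKM with S264A, 13.6 RPKM with wild type and 13.2 RPKM with empty vector, on 891, 921 and 2250 reads. The ratio was 0.905 for S264A over empty vector (0.837 to 0.979) and 0.878 for S264A over wild type (0.800 to 0.964). The ratio for wild type over empty vector was 1.03, with an interval of 0.953 to 1.11, and it was below 1, at 0.858 to 0.998, under all 4 other scalings.

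TSC22D4 and NRBP1 transcripts therefore stood in different proportions. TSC22D4 over NRBP1, a ratio within each library, was 4.29 with S264A, 4.78 with wild type and 0.606 with empty vector. TSC22D1 over NRBP1 was 0.886 with S264A, 0.420 with wild type and 0.676 with empty vector, and TSC22D3 over NRBP1 was 0.679, 0.321 and 0.460 in the same order.

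NRBP2, the paralog of NRBP1, had the lowest level of the 7 genes in each line and was lower in both transgene lines than with empty vector. It stood at 1.72 RPKM with S264A, 2.28 RPKM with wild type and 3.03 RPKM with empty vector, on 119, 143 and 480 reads. The ratio was 0.567 for S264A over empty vector (0.460 to 0.694), 0.750 for wild type over empty vector (0.618 to 0.906) and 0.756 for S264A over wild type (0.587 to 0.971). All 3 ratios remained below 1 under the 4 other scalings, between 0.492 and 0.565 for the first of them. Differences of at least that size, 0.57 on the log2 RPKM + 1 scale, occurred in 13.3% of genes tested between S264A and empty vector. For the NRBP2 differences in the other comparisons the shares were 45.2% between wild type and empty vector (-0.30) and 43.5% between S264A and wild type (-0.27). NRBP1 was 6.94 times as abundant as NRBP2 with S264A, 5.97 times with wild type and 4.34 times with empty vector. In GENCODE release 29, exons of NRBP2 share 432 bases with the antisense gene AC234917.2, and on the same strand 100 bases with AC234917.1 and 61 with MIR6845.

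WNK1, the osmosensing kinase, was at nearly the same level in all lines. It stood at 11.1 RPKM with S264A, 10.3 RPKM with wild type and 11.1 RPKM with empty vector, on 2233, 1879 and 5101 reads. The ratio was 1.00 for S264A over empty vector (0.952 to 1.05), 0.927 for wild type over empty vector (0.879 to 0.978) and 1.08 for S264A over wild type (1.01 to 1.15). With upper-quartile scaling the first ratio was 0.868 and the second 0.772.

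**Figure D4:**
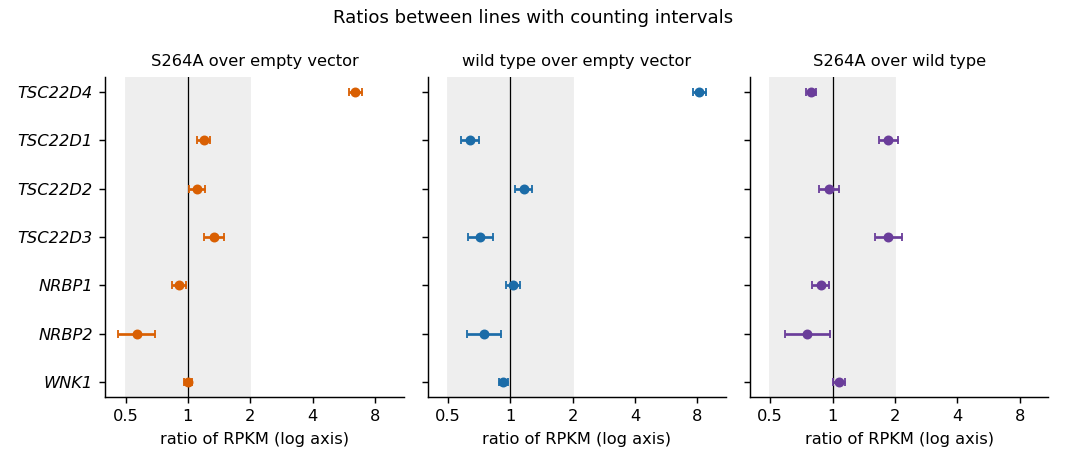
Ratio of RPKM (log axis) for each gene in the 3 comparisons, with exact 95% counting intervals, and a grey band from 0.5 to 2. Only TSC22D4 lies outside the band, at 6.41 and 8.14 against empty vector, and TSC22D1 (1.85) and TSC22D3 (1.86) lie near its upper edge for S264A over wild type.

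Ordered by level, TSC22D4 was first in the transgene lines, 4.29 times the second gene NRBP1 with S264A (3.97 to 4.63) and 4.78 times with wild type (4.44 to 5.16). With S264A the next genes were NRBP1, WNK1 and TSC22D1, whose neighbouring ratios of 1.08 (0.994 to 1.16) and 1.05 (0.974 to 1.13) were within counting error, followed by TSC22D3, TSC22D2 and NRBP2. With wild type NRBP1, WNK1, TSC22D1, TSC22D2, TSC22D3 and NRBP2 followed, and the ratio of TSC22D2 to TSC22D3, 1.07 (0.930 to 1.24), was within counting error. With empty vector the order was NRBP1, WNK1, TSC22D1, TSC22D4, TSC22D3, TSC22D2 and NRBP2, and the interval of each neighbouring ratio excluded 1. All these intervals cover counting error only, and the order also depends on the gene lengths used. Among genes at or above 1 RPKM, TSC22D4 exceeded 96.2% with S264A, 96.6% with wild type and 67.3% with empty vector.

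The genes whose pattern over the 3 lines was most like that of TSC22D4 were sought among 12379 genes, by the distance of centred log2 RPKM + 1 over the 3 libraries. The 5 nearest were RPL9P7, RP11-3P17.5, SLC43A3, MT1L and CALB2, at distances of 0.131 to 0.322. SLC43A3, a solute carrier gene, stood at 14.2 RPKM with S264A, 14.4 RPKM with wild type and 1.48 RPKM with empty vector. CALB2, which encodes the calcium-binding protein calretinin, stood at 31.6, 32.9 and 3.11 RPKM in the same order. Adding 1 to RPKM narrows the ratio where a level is near the floor. RPL9P7, on 4 reads with empty vector, had plain ratios over empty vector of 32.0 with S264A and 45.9 with wild type. MT1L, on 1 read with empty vector, had 82.3 and 80.6, while TSC22D4 had 6.41 and 8.14. RPL9P7 carries the name of a ribosomal protein pseudogene and MT1L belongs to the metallothionein family, so that reads of near-identical copies may be mixed in their values. Likeness over 3 libraries is a description only.

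The wider WNK pathway was read from a list of 18 genes, of which 9 reached 1 RPKM in each comparison. The list had 1 more gene, which is not reported here, so no median is given. None of the 9 was higher or lower by at least 2-fold on the RPKM + 1 scale against empty vector in either transgene line. Over all genes tested, the share in either direction was 3.81% for S264A and 6.07% for wild type against empty vector. The gene not reported is outside these counts, so they do not stand for the whole list. For S264A against wild type 1 of 9 was lower, NEDD4L, a ubiquitin ligase gene that acts on epithelial sodium channels. Over all genes tested, 2.23% were lower in that comparison. Single calls in lists this short, here and below, are not read as results about a pathway. NEDD4L stood at 2.82 RPKM with S264A, 6.68 RPKM with wild type and 4.31 RPKM with empty vector, a ratio of 0.422 for S264A over wild type (0.383 to 0.465). Its log2 difference of -1.01 passed the 2-fold rule under 5 of 9 alternative settings, and not with a pseudocount of 5 or with upper-quartile, equal-sum or median-ratio scaling.

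The kinase genes next to WNK1 differed by less than 2-fold between lines. STK39, which encodes SPAK, stood at 13.6 RPKM with S264A, 11.8 RPKM with wild type and 9.46 RPKM with empty vector, and OXSR1, which encodes OSR1, at 7.02, 6.64 and 6.57 RPKM. CAB39, which encodes a scaffold that activates both kinases and had the highest mean level on the list, stood at 12.4, 12.7 and 11.3 RPKM. WNK2, WNK3 and WNK4 were all below 1 RPKM in every line, so that WNK1 was the WNK gene with the highest level.

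Of the cotransporter genes, SLC12A7, SLC12A2 and SLC12A4 were singled out after their values were seen, and they did not share an order of lines. SLC12A7, which encodes a potassium-chloride cotransporter, stood at 3.26 RPKM with S264A, 6.26 RPKM with wild type and 2.85 RPKM with empty vector and was highest in the wild-type line. SLC12A2, which encodes the sodium-potassium-chloride cotransporter NKCC1, stood at 3.46, 5.88 and 4.80 RPKM in the same order and was also highest with wild type. SLC12A4, which encodes another potassium-chloride cotransporter, stood at 4.27, 2.80 and 2.29 RPKM and was highest with S264A. None of the 3 passed the 2-fold rule on the RPKM + 1 scale, although the plain ratio of SLC12A7 was 2.20 for wild type over empty vector (1.94 to 2.49).

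Of 11 genes for cell volume and the osmotic response, 10 were tested, and 1 was at least 2-fold higher on the RPKM + 1 scale against empty vector in each transgene line. This was LRRC8A, the essential subunit gene of the volume-regulated anion channel. Over all genes tested, 2.99% were higher with S264A and 4.53% with wild type. LRRC8A stood at 89.0 RPKM with S264A, 78.5 RPKM with wild type and 35.0 RPKM with empty vector, a ratio of 2.54 for S264A (2.45 to 2.63) and 2.24 for wild type (2.16 to 2.32). For wild type the log2 difference of 1.14 was below 1 with upper-quartile and equal-sum scaling and in the quantile-normalised columns, with 0.88 as its lowest value. NFAT5, an osmotic stress transcription factor gene singled out after its values were seen, stood at 11 RPKM with S264A, 6.14 RPKM with wild type and 5.47 RPKM with empty vector. Its plain ratio for S264A over empty vector was 2.02 (1.91 to 2.13), a log2 difference of 0.90 on the RPKM + 1 scale. LRRC8E, another channel subunit gene singled out in the same way, had a plain ratio of 2.15 for wild type over empty vector (1.75 to 2.62) and a log2 difference of 0.77. The list's median was 0.24 for S264A over empty vector, 0.18 for wild type over empty vector and 0.07 for S264A over wild type.

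NRBP1 is known as a substrate receptor of cullin ubiquitin ligases, and a list of 8 ligase subunits and substrates was examined. For S264A against empty vector 1 of 8 was at least 2-fold higher on the RPKM + 1 scale, SALL4, which encodes a stem cell transcription factor, and 0 were lower. For wild type against empty vector 1 of 7 was lower, ITM2C, which encodes a membrane protein, and 0 were higher. Over all genes tested, 2.99% were higher for S264A and 1.54% lower for wild type, each against empty vector. For S264A against wild type none of 8 passed, and over all genes tested 3.78% did so in either direction. The plain ratio of ITM2C in that comparison was nevertheless 2.25 (1.57 to 3.27). SALL4 stood at 1.77 RPKM with S264A, 0.986 RPKM with wild type and 0.353 RPKM with empty vector, on 101, 51 and 46 reads, and its log2 difference of 1.04 passed the rule under 5 of 9 alternative settings. ITM2C stood at 2.98, 1.32 and 3.66 RPKM in the same order, just at the 2-fold limit with a log2 difference of -1.0, and passed it under 6 of 9 alternative settings. TCEB2, the Elongin B gene and the highest of the list by its mean over the lines, stood at 39.9 RPKM with S264A, 43.2 RPKM with wild type and 35.5 RPKM with empty vector. ITM2B, at 39.9, 30.3 and 40.5 RPKM in the same order, was above it with empty vector. The medians were -0.07 for S264A over empty vector, -0.29 for wild type over empty vector and 0.24 for S264A over wild type.

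Genes of the pathways for which TSC22D3 and TSC22D1 are named were set beside them. Of 8 glucocorticoid-related genes, 4 reached 1 RPKM in each comparison and none was at least 2-fold higher or lower on the RPKM + 1 scale. Over all genes tested the share in either direction was 3.81% for S264A and 6.07% for wild type against empty vector. It was 3.78% for S264A against wild type. CEBPD, the transcription factor gene with the highest mean level of these, stood at 6.78 RPKM with S264A, 7.32 RPKM with wild type and 4.23 RPKM with empty vector. NR3C1, which encodes the glucocorticoid receptor and was singled out after its values were seen, stood at 4.09 RPKM with S264A, 4.03 RPKM with wild type and 8.25 RPKM with empty vector. Its ratio to empty vector was 0.495 with S264A (0.450 to 0.545) and 0.489 with wild type (0.442 to 0.539), with log2 differences of -0.86 and -0.88 on the RPKM + 1 scale. DUSP1, a phosphatase gene singled out in the same way, had a plain ratio of 2.31 for wild type over empty vector (1.63 to 3.27) and a log2 difference of 0.76. PER1, the remaining gene tested, was also singled out after its values were seen. It stood at 3.28 RPKM with S264A, 2.02 RPKM with wild type and 2.20 RPKM with empty vector, highest and lowest in the same lines as TSC22D3. The PER1 ratio was 1.62 for S264A over wild type (1.35 to 1.96) and 0.917 for wild type over empty vector (0.769 to 1.09). The other genes tested did not have the TSC22D3 order of lines. Their ratio for S264A over wild type was 0.509 for DUSP1 (0.331 to 0.773), 0.926 for CEBPD (0.759 to 1.13) and 1.01 for NR3C1 (0.894 to 1.15). The list's median was 0.27 for S264A over empty vector, 0.29 for wild type over empty vector and -0.04 for S264A over wild type.

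Of the TGF-beta signalling genes, for which no count over the list is given, SMAD3, a signal transducer gene, had the highest mean level. SMAD3 stood at 16 RPKM with S264A, 20.3 RPKM with wild type and 18.3 RPKM with empty vector, and does not stand for the whole list. The ligand gene TGFB1 and the receptor genes TGFBR1 and TGFBR2 were singled out after their values were seen. TGFB1 stood at 11.1 RPKM with S264A, 18.8 RPKM with wild type and 11.3 RPKM with empty vector. In the same order TGFBR1 stood at 6.75, 5.84 and 4.05 RPKM and TGFBR2 at 6.05, 8.88 and 10.1 RPKM, so these genes did not share an order of lines.

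**Figure D5:**
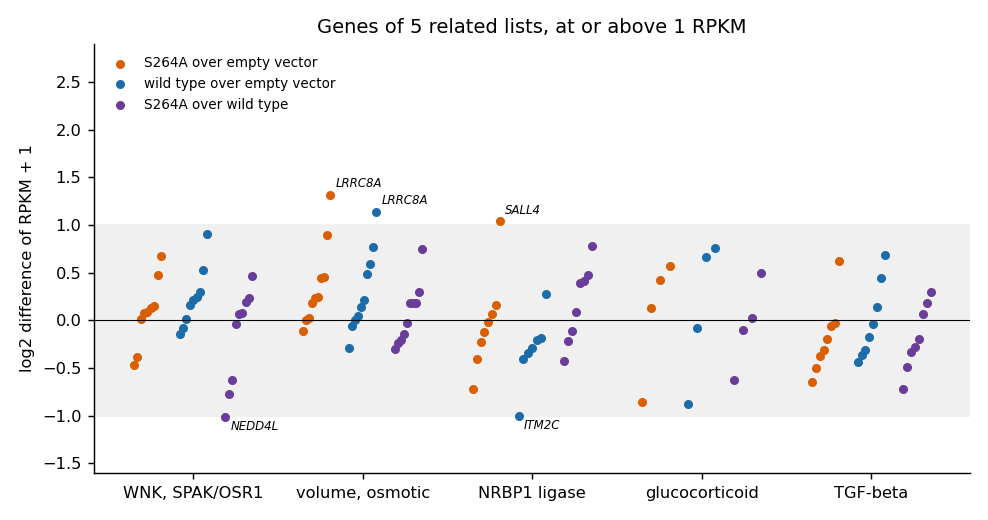
Log2 difference of RPKM + 1 for the genes of 5 lists at or above 1 RPKM, one point per gene, in the 3 comparisons, with a grey band for differences under 2-fold. The WNK and TGF-beta lists are each drawn without 1 gene. LRRC8A lies above the band in both transgene lines against empty vector, SALL4 does so with S264A, and NEDD4L and ITM2C lie at its lower edge.

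The libraries differed in depth, with 14022885 reads for S264A, 12733479 for wild type and 32055052 for empty vector, so that intervals are narrower on the empty-vector side. Keratinocyte markers (KRT5, KRT14, TP63, DSG3 and ITGA6) summed to 820.3 RPKM with S264A, 635 RPKM with wild type and 601 RPKM with empty vector. KRT14 alone was over 2-fold higher against empty vector, at 382 RPKM with S264A, 287 RPKM with wild type and 119 RPKM with empty vector, while KRT5 stood at 329, 240.5 and 367 RPKM in the same order. Of 17 markers of fibroblasts, melanocytes, endothelial and immune cells in the table, 3 reached 1 RPKM in any line, and LUM and TYR were at 0 in each of the 3. Summed fibroblast markers stayed between 0.557 and 0.825 RPKM. Melanocyte markers summed to 1.31, 2.07 and 1.15 RPKM, endothelial markers to 1.65, 0.691 and 0.374 RPKM and immune markers to 1.84, 5.37 and 1.04 RPKM for S264A, wild type and empty vector, through MITF, VWF and CD68. Their part in the results was not tested. In bulk RNA, fewer cells that express a gene and less RNA per cell cannot be told apart.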

How the data were processed

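RNA sequencing data of 3 lines, 1 library each, were used. The deposited table holds, per the file headers, expression values in RPKM and normalised values for each library. The normalised columns are RPKM quantile-normalised by the authors, since their sorted values are the same in all libraries. The submitters' processing notes name the build hg19. Aligner, counter, annotation and strandedness were not given in the sources used here.

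Library depth was read from genes with 1 exon, among which 1 read was the commonest value, and whole reads from gene lengths at which all 3 values came out whole within 0.001 reads. GENCODE release 29 chose among such lengths, and 5 of the 7 genes had its length exactly. Ratios carry exact Clopper-Pearson 95% intervals from these reads (counting error only). Differences are log2((RPKM a + 1)/(RPKM b + 1)) for genes that reached 1 RPKM in either library, and the fold rule is 2. No p-value was computed. The fold rule was tested on simulated reads. The length search was tried on such reads only with the true length as its guide, so it could not fail there. Nothing is concluded from it for genes whose length differs from that of GENCODE release 29 or is missing there. Python 3.11.15, scipy 1.17.1 and pandas 2.3.3 were used.

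Named by rule were the 7 genes, HRAS, list genes past 2-fold or highest in mean level, and the 5 nearest to TSC22D4. Other named genes (STK39, OXSR1, C7orf61, ITM2B, WNK2, WNK3, WNK4 and those described as singled out) were chosen after their values were seen. The members and lists were chosen with earlier results of these data known. Alternatives were other pseudocounts, filters, scalings and columns, and summed gene copies. The endothelial marker PECAM1 is not analysed here. From the WNK and TGF-beta lists 1 gene each was left out after values were seen and is not reported here, so no median over either list and no count over the TGF-beta list is given.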

Additional observations from a re-analysis of the deposited data

Results flagged for a closer look

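TSC22D1 and TSC22D3 are set apart because the S264A and wild-type THG-1 lines lay on opposite sides of the empty-vector line, with both counting intervals excluding 1 at the deposited scaling. With upper-quartile scaling the S264A ratio of TSC22D1 was 1.03, still above 1 but closer to 1 than the width of its counting interval, so its side of the empty-vector line is not firm. For TSC22D1 the ratio to empty vector was 1.19 with S264A and 0.640 with wild type. For TSC22D3 it was 1.34 with S264A and 0.718 with wild type. Each direction rests on 1 library per line, both ratios share the empty-vector library, and the difference was not tested.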

How the results depend on the processing

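With 1 library per line, none could be left out, and no paired analysis was possible because the lines share no replicates. The number of the 7 genes past the 2-fold rule was the same under all 9 alternatives in each comparison and direction. Of the log2 differences of the 7 genes under the alternatives, 119 moved by less than their counting interval and 28 by more, and neither TSC22D4 value above 2-fold changed direction. Upper-quartile scaling moved the median of all genes to -0.15 for S264A over empty vector and -0.23 for wild type over empty vector, and equal-sum scaling moved it to -0.14 for wild type over empty vector and 0.12 for S264A over wild type. Under other scalings the ratio of NRBP1 crossed 1 for wild type over empty vector, and that of TSC22D2 did so in all 3 comparisons (1.04 for S264A over wild type with equal-sum scaling).

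The counts over all genes depended on the settings. For S264A over empty vector, 359 genes were higher and 99 lower. With a pseudocount of 0.1 these were 695 and 246, with a pseudocount of 5 they were 85 and 9, with a filter at 5 RPKM 178 and 26, and with upper-quartile scaling 177 were lower and 59.4% of calls were higher, against 78.4%. For wild type over empty vector, 543 were higher and 185 lower. The counts were 869 and 492 with a pseudocount of 0.1, 166 and 18 with 5, and 317 and 70 with a filter at 5 RPKM. With upper-quartile scaling 362 were lower and 51.6% of calls were higher, against 74.6%, and with equal-sum scaling 62.7%. For S264A over wild type, 187 were higher and 269 lower, with 509 and 518 at a pseudocount of 0.1, 26 and 63 at 5, and 71 and 149 with a filter at 5 RPKM. Equal-sum scaling turned the majority round there, with 223 higher and 215 lower, or 50.9% of calls higher against 41%. Fewer genes enter with a higher filter. The cause of the other shifts was not tested.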
